A study of Homo sapiens with 10 samples.

Results

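The 10 genes described here are the ligands BMP4 and BMP7, the secreted antagonists NOG and GREM1, the pseudoreceptor BAMBI, the inhibitory SMAD gene SMAD6 and the response genes ID1, ID2, ID3 and ID4. They were taken by symbol from the 57820 gene identifiers counted in each library, and all 10 were found. Their expression was measured by sequencing poly(A)-selected RNA from D425 and HD-MB03, a pair of established human cell lines of Group 3 medulloblastoma, a childhood tumour of the cerebellum. The study aimed a short hairpin RNA at CRX, a homeobox factor known from photoreceptors, and its title names TGF-beta and activin signalling.

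The 6 D425 libraries were 2 of parental cells, 1 of cells with the empty vector and 3 labelled shCRX. The 4 HD-MB03 libraries were 1 of parental cells, 1 of cells with the empty vector and 2 labelled shCRX. The shCRX cells were stable polyclonal populations carrying a doxycycline-inducible short hairpin RNA in Tet-pLKO-puro, a lentiviral plasmid. The hairpins were a pair, and the one carried by each library is not stated. All cells were grown with 10% fetal bovine serum, and the treatment note attached to every library, parental ones included, gives doxycycline at 4 µg/ml for 72 h. Parental and vector libraries of a line are called its controls. Nothing in the labels states that replicate libraries stem from separate cultures, and a p-value here speaks only of the spread among them, which may be technical.

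Libraries held 1.96 to 18.06 M counted reads, and levels are given as CPM, the counts per 1 M reads of the scaled library size. The libraries also carry numbers, 20 to 62 for D425 shCRX and the HD-MB03 controls, and 110 upward for the D425 controls and HD-MB03 shCRX. Within a line, this number set and the arm cannot be told apart. Reads that did not align were 30.9% and 26.4% in the HD-MB03 controls and 4.54% to 7.99% in the other 8 libraries. CRX was at 47.5, 29.7 and 64.9 CPM in the D425 controls and at 20.3, 20.9 and 25.3 CPM in D425 shCRX, with a log2 fold change of -1.10 ± 0.26 that passed the test (edgeR adjusted p = 0.0436). In HD-MB03 it went against the label, with 12.5 and 12.3 CPM in the controls and 27.7 and 23.5 CPM in the libraries labelled shCRX. Those libraries are therefore named by their label throughout, and whether the HD-MB03 arms were exchanged cannot be told from the files. The sign of each HD-MB03 response below rests on these labels. Of the 8 markers of Group 3 medulloblastoma examined, all but NPR3 and EOMES were detected in every group, with summed levels of 5499 to 6360 CPM in the D425 controls and 2955 to 4632 CPM in D425 shCRX. In HD-MB03 the sums were 7058 to 8873 CPM in controls and 7326 to 7575 CPM in the libraries labelled shCRX.

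Bone morphogenetic proteins (BMPs) are secreted ligands that bind pairs of type I and type II receptor kinases, which phosphorylate SMAD1, SMAD5 and SMAD9. These enter the nucleus with SMAD4 and switch on target genes, among which the ID genes and SMAD6 are widely used as readouts. ID proteins have a helix-loop-helix domain but no DNA-binding region, and they hold E proteins and other helix-loop-helix factors away from DNA. Noggin and gremlin-1, the products of NOG and GREM1, bind BMPs outside the cell, SMAD6 acts against the pathway inside it, and BAMBI resembles a type I receptor without its kinase. NOG, GREM1, SMAD6 and BAMBI are thus inhibitors, and inhibitors of this pathway are often among its own targets. In the cerebellum BMPs from the roof plate help to set up the rhombic lip, and later BMPs oppose the proliferation of granule cell precursors.

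The 250 bases before the transcription start are shown for the members that rose in D425 and for which a window was held, and for BAMBI, which did not pass the test and whose window holds the most copies of GGCGCC. They come from the RefSeq promoter table of build GRCh38.p14, whereas the deposited counts were made on GRCh37. Windows were held for 8 of the 10 members (11 windows, since GREM1 has 2 and BMP4 has 3), and NOG and BMP7 had none. Capitals mark GGCGCC, the core of the GC-rich element bound by BMP SMADs, and GTCT or its reverse complement AGAC, the short SMAD box. The ID1 window is chr20:31605039-31605288 on the plus strand, that of ID3 is chr1:23559502-23559751 on the minus strand and that of SMAD6 is chr15:66701986-66702235 on the plus strand. The window before the more upstream GREM1 start is chr15:32717754-32718003 and that of BAMBI is chr10:28677271-28677520, both on the plus strand.
ID1: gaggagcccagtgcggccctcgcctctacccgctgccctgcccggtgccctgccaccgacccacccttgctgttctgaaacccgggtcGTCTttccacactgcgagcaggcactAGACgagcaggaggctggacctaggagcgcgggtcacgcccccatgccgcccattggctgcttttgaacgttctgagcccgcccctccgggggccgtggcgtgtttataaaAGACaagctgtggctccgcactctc
ID3: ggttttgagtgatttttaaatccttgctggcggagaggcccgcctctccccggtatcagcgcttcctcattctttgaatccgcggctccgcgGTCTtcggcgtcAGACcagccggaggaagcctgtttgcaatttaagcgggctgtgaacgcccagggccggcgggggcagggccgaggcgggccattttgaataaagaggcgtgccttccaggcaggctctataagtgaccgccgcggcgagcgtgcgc
SMAD6: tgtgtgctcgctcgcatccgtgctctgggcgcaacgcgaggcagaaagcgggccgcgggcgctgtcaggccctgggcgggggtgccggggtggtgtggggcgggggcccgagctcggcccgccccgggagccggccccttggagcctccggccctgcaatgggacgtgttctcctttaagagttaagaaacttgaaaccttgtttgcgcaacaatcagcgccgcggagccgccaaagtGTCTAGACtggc
GREM1: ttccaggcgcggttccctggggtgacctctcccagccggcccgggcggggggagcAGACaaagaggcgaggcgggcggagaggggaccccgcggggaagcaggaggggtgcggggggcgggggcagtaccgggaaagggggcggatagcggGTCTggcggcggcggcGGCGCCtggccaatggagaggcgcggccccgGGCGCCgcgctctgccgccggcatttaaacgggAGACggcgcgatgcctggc
BAMBI: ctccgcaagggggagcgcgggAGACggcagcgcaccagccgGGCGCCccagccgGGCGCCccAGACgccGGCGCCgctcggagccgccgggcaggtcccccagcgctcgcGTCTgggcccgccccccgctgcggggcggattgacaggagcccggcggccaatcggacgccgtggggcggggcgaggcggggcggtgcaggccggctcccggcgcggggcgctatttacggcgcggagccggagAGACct
GGCGCC, which reads the same on both strands, begins 83 and 52 bases before the GREM1 start and 209, 196 and 181 bases before the BAMBI start, and it is not in the windows of ID1, ID3 or SMAD6. It is in 3 of the 11 member windows and in 16.4% of the 34788 windows of this length in the table. GTCT, searched on both strands, is in 10 of the 11 and in 77.5% of all windows. The ID1 window has 3 copies, the nearest beginning 25 bases before the start, and copies begin 158 and 146 bases before the ID3 start and 12 and 8 bases before the SMAD6 start. TAATCC, a homeobox motif of the kind CRX binds, was searched on both strands and is in 0 of the 11, against 5.61% of all windows. GGCGCC and GTCT cannot overlap each other, and a match describes the window and is not a binding site.

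In D425, 5 of the 9 tested members were higher in the shCRX libraries than in controls, namely ID1, ID3, SMAD6, NOG and GREM1, and none was lower, by edgeR's quasi-likelihood test with Benjamini-Hochberg adjustment at 0.05 over 16006 genes. Of all genes tested, 1.61% were called higher and 1.37% lower, or 2.97% in either direction. BMP4 did not pass the filter on low counts and was not tested, and ID2, ID4, BAMBI and BMP7 did not pass the threshold. GREM1 passed that filter through D425 shCRX, the group where it was high. Its place in the counts and the median given here is therefore partly set by the filter. The members that rose hold 2 transcriptional targets that act on helix-loop-helix factors and 3 inhibitors of the pathway, and no ligand. In HD-MB03, 1 of the 9 was called, NOG, and it was lower, where 1.24% of all genes were called lower and 0.262% higher, or 1.51% in either direction. The median log2 fold change of the tested members was 2.01 in D425, where that of all genes was 0.019, and -0.66 in HD-MB03, where that of all genes was 0.102.

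**Figure D1:**
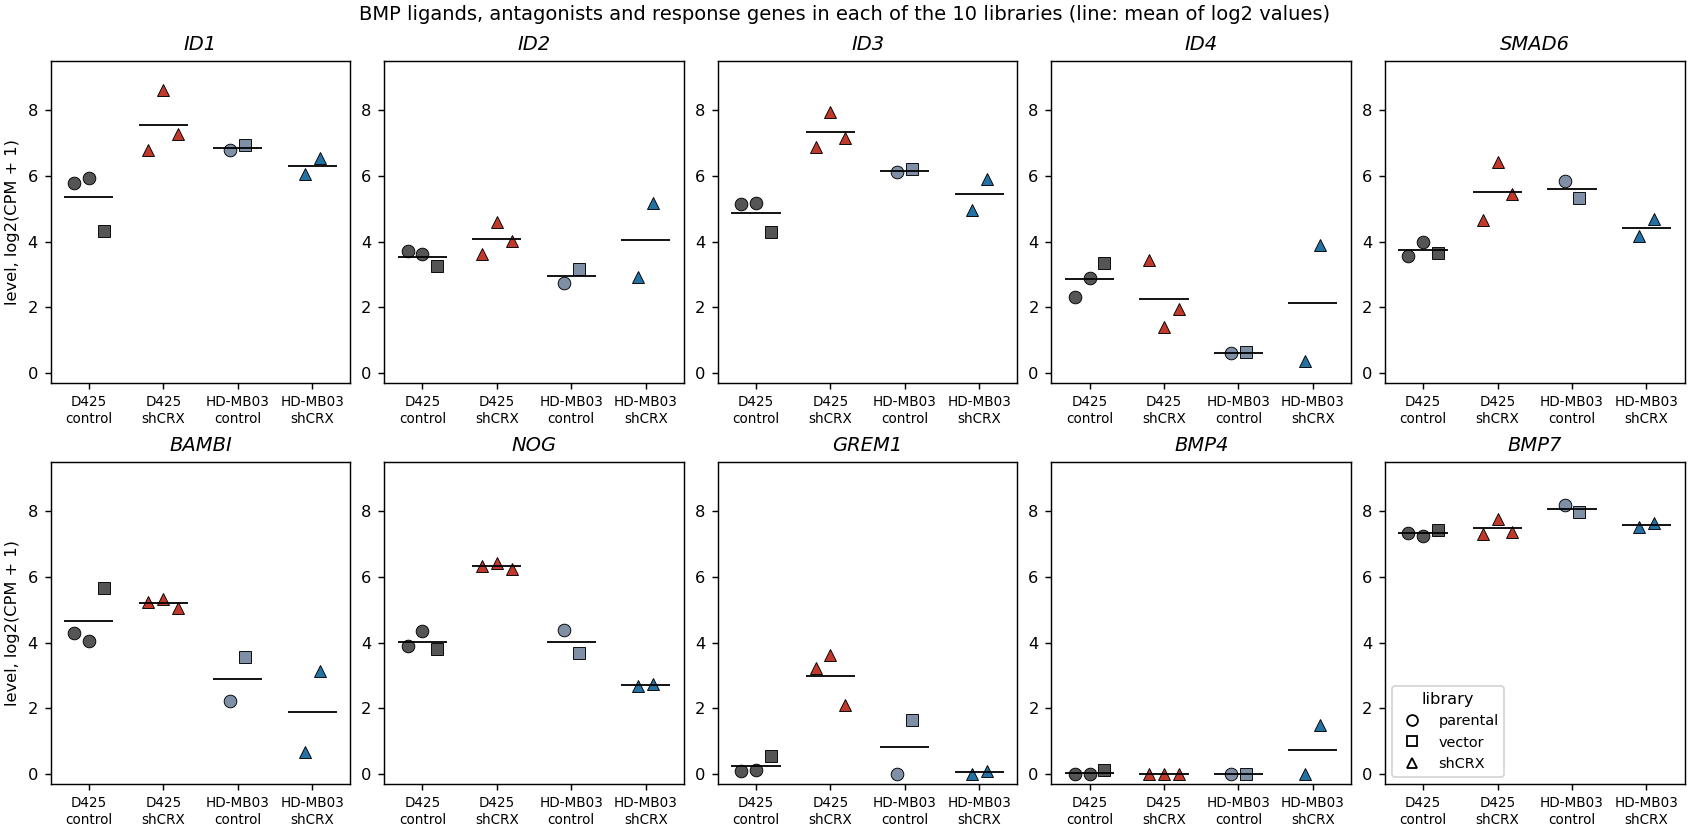
Level of each of the 10 genes on the log2(CPM + 1) scale in every library, by line and arm, with the line at the mean of the log2 values. In D425 every shCRX library lies above every control for ID1, ID3, SMAD6, NOG and GREM1, while the HD-MB03 shCRX libraries lie below their controls for ID1, ID3, SMAD6, NOG and BMP7.

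Of the ID genes, ID1 was at 54.3, 60.3 and 19.1 CPM in D425 parental replicates 1 and 2 and the vector library, and at 109, 394 and 155 CPM in shCRX replicates 1 to 3. Every shCRX library was above every control, and shCRX replicate 2 was far above the other shCRX libraries. The log2 fold change was 2.29 ± 0.49 (SE, edgeR adjusted p = 0.0317), a 4.91-fold rise. Without shCRX replicate 2 it was 1.53 with an adjusted p of 0.0804, and leaving out either parental library, the vector library or either HD-MB03 shCRX library also ended the call, at adjusted p of 0.0535 to 0.0869. In HD-MB03, ID1 was at 110 and 121 CPM in the parental and vector libraries and at 66.0 and 92.8 CPM in the libraries labelled shCRX. The arms did not overlap, but the difference did not pass the test, at -0.54 ± 0.59 on the log2 scale (adjusted p = 0.678, edgeR). Ordered by mean, ID1 was at 219 ± 153 CPM in D425 shCRX (SD, n = 3), 116 ± 8.03 in HD-MB03 controls (n = 2), 79.4 ± 18.9 in HD-MB03 shCRX (n = 2) and 44.5 ± 22.2 in D425 controls (n = 3). D425 shCRX and HD-MB03 controls overlapped in this order, and the other neighbours did not.

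ID3, which like ID1 encodes a partner of E proteins, was at 34.2, 34.9 and 18.6 CPM in the D425 controls and at 117.4, 246.5 and 140.9 CPM in D425 shCRX. The lowest shCRX library was thus well above the highest control, and the log2 fold change was 2.52 ± 0.35 (edgeR adjusted p = 0.00327), or 5.73-fold. The call held with each library left out in turn, with values of 2.11 to 2.70. In HD-MB03 the controls were at 68.7 and 72.9 CPM and the shCRX libraries at 30.3 and 59.3 CPM, which did not overlap. Their log2 fold change was -0.66 ± 0.42 and did not pass (edgeR adjusted p = 0.448). D425 shCRX had the highest mean of the groups at 168 ± 68.8 CPM, followed by HD-MB03 controls at 70.8 ± 2.98, HD-MB03 shCRX at 44.8 ± 20.5 and D425 controls at 29.2 ± 9.2. The last 2 of these overlapped.

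ID2 and ID4 did not share this pattern. ID2 was at 12.04, 11.2 and 8.63 CPM in the D425 controls and at 11.4, 23.0 and 15.3 CPM in D425 shCRX, groups that overlapped (log2 fold change 0.62 ± 0.49, edgeR adjusted p = 0.562, 95% interval -0.43 to 1.68). In HD-MB03 it was at 5.73 and 8.04 CPM in the controls and at 6.65 and 35.2 CPM in the shCRX libraries, so that only replicate 2 stood out. The log2 fold change of 1.60 ± 0.69 did not pass the test (edgeR adjusted p = 0.26). Without shCRX replicate 2 it was -0.04, and without replicate 1 it was 2.36 and was called (adjusted p = 0.049). ID4, the ID gene with the lowest level in most libraries, was at 3.98, 6.37 and 9.18 CPM in the D425 controls and at 9.78, 1.65 and 2.81 CPM in D425 shCRX. The shCRX libraries lay on both sides of the controls, and the log2 fold change was -0.36 ± 0.92 (edgeR adjusted p = 0.893). In HD-MB03 it had 1 count in each control and 4 and 196 counts in the shCRX libraries, or 0.520, 0.536, 0.286 and 14.0 CPM. Pooled over the arm, 200 counts against 2 gave a ratio of 13.5 with a 95% counting interval of 3.70 to 113, which covers counting error only and rests on replicate 2.

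Levels were compared between the ID genes per length, as CPM per kb of exon. The sum over the 4 genes was 70.2, 76.1 and 33.7 CPM per kb in the D425 controls and 163, 468 and 213 in D425 shCRX. The HD-MB03 controls summed to 130 and 143 CPM per kb, and the HD-MB03 libraries labelled shCRX to 73.6 and 130. ID1 made up 46.0% to 72.8% of this sum over the 10 libraries, ID2 2.00% to 12.3% and ID4 0.151% to 11.6%, so ID1 and ID3 together carried most of it in each library. Their proportion to each other moved less than their sum. The ratio of ID1 to ID3 per kb was 2.32, 2.51 and 1.49 in D425 controls, and 1.35, 2.33 and 1.61 in D425 shCRX. HD-MB03 had ratios of 2.33 and 2.42 for its controls, and of 3.18 and 2.28 for the libraries labelled shCRX.

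**Figure D2:**
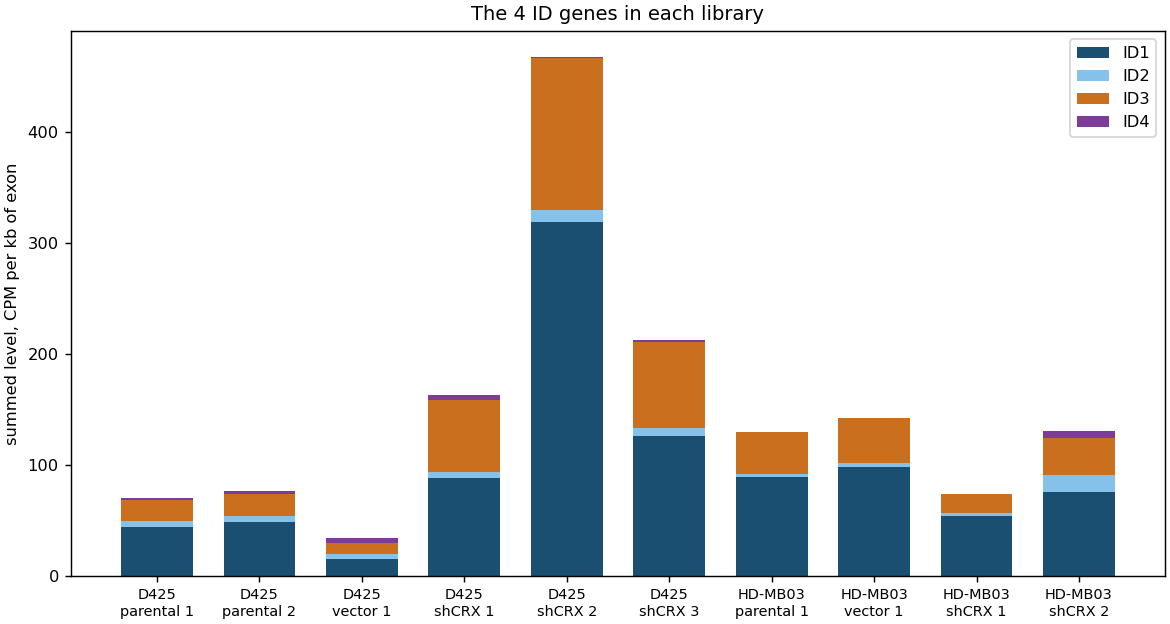
Stacked levels of the 4 ID genes per length (CPM per kb of exon) in each library, starting at 0. ID1 and ID3 make up most of every bar, and the bar of D425 shCRX replicate 2 is the tallest at 468 CPM per kb.

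SMAD6, the inhibitory SMAD that acts against BMP receptors and SMAD1, was at 10.9, 14.9 and 11.6 CPM in the D425 controls and at 24.0, 85.4 and 42.5 CPM in D425 shCRX. All shCRX libraries were above all controls, and the log2 fold change was 2.01 ± 0.39 (edgeR adjusted p = 0.0188), or 4.03-fold. The call was lost without parental replicate 1 (1.92, adjusted p = 0.0618) and without the vector library (1.96, adjusted p = 0.0819). In HD-MB03, SMAD6 was at 56.7 and 39.1 CPM in the controls and at 17.0 and 24.6 CPM in the shCRX libraries. These did not overlap, and the log2 fold change of -1.21 ± 0.48 did not pass (edgeR adjusted p = 0.226). The means over the groups were 50.6 ± 31.5 CPM in D425 shCRX, 47.9 ± 12.4 in HD-MB03 controls, 20.8 ± 5.34 in HD-MB03 shCRX and 12.5 ± 2.14 in D425 controls, and of these neighbours only the first pair overlapped.

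BAMBI, the pseudoreceptor, did not follow SMAD6. It was at 18.5 and 15.6 CPM in the D425 parental libraries, 49.8 CPM in the D425 vector library and 36.7, 39.5 and 32.2 CPM in D425 shCRX. The vector library was above every shCRX library and the parental libraries were below them. The log2 fold change against the controls together was 0.38 ± 0.63 (edgeR adjusted p = 0.822), and against the vector library alone it was -0.48. In HD-MB03 it was at 3.64 and 10.7 CPM in the parental and vector libraries and at 0.572 and 7.73 CPM in the shCRX libraries, with 8 and 108 counts. These overlapped, and the log2 fold change was -0.78 ± 0.996 (edgeR adjusted p = 0.727). Vector and parental cells of D425 also differed for ID1, the other way round, with 19.1 CPM in the vector library against 54.3 and 60.3. With 0.5 CPM added, BAMBI was the 1 tested member at least 2-fold above both parental libraries in the vector library, as were 1.0% of all genes, and ID1 the 1 member at least 2-fold below them, as were 0.693%. With 1 vector library this difference has no replicate check.

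Of the antagonists, NOG was at 13.8, 19.6 and 13.1 CPM in the D425 controls and at 79.7, 85.6 and 74.2 CPM in D425 shCRX. The shCRX libraries lay close together, and the lowest of them was several times the highest control. The log2 fold change of 2.36 ± 0.23, or 5.15-fold, ranked the 4th of all genes by p (edgeR adjusted p = 5.85e-04). It was called under each of the 21 alternatives run, with values of 2.13 to 2.58. In HD-MB03, NOG was at 19.8 and 11.8 CPM in the controls, from 38 and 22 counts, and at 5.36 and 5.66 CPM in the shCRX libraries, from 75 and 79 counts. Here the log2 fold change was -1.52 ± 0.32 (95% interval -2.21 to -0.83, edgeR adjusted p = 0.038), which is 2.87-fold lower. This call was lost without D425 parental replicate 1, D425 shCRX replicate 3, the HD-MB03 parental library or either HD-MB03 shCRX library, at adjusted p of 0.0503 to 0.398 and log2 values of -1.08 to -1.55. It was also lost with limma-voom, at a log2 value of -1.49 (adjusted p = 0.118), and with offsets for GC content and length, at -1.29 (adjusted p = 0.0524). By mean, D425 shCRX stood at 79.8 ± 5.72 CPM, HD-MB03 controls at 15.8 ± 5.64, D425 controls at 15.5 ± 3.57 and HD-MB03 shCRX at 5.51 ± 0.210. The controls of the 2 lines overlapped, and the other neighbours did not.

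GREM1, the gremlin gene, was near the limit of detection except in D425 shCRX. It had 1, 1 and 5 counts in the D425 controls (0.0560, 0.0807 and 0.454 CPM) and 91, 55 and 13 counts in D425 shCRX (8.40, 11.4 and 3.33 CPM). The groups were far apart, and the log2 fold change was 5.34 ± 0.85 (edgeR adjusted p = 0.00619), with values of 4.82 to 6.60 when any 1 library was left out. With every library thinned to the depth of the shallowest, it was 3.17 and no longer passed (adjusted p = 0.0608). In HD-MB03 it had 0 and 4 counts in the controls and 0 and 1 in the shCRX libraries. A ratio of 1 count to 4, scaled for depth, was 0.0339 with a 95% counting interval of 6.88e-04 to 0.342, and the fitted change did not pass (edgeR adjusted p = 0.21). All 4 of the control counts came from the vector library. A count of 0 in the HD-MB03 parental library allows up to 1.56 CPM (3 counts), so a level such as that of the D425 controls was not detectable there.

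Of the ligands, BMP7 was the more highly expressed and moved little in D425, at 162, 151 and 173 CPM in controls and 159, 217 and 165 CPM in shCRX. These overlapped, and the log2 fold change was 0.15 ± 0.18 (edgeR adjusted p = 0.72, 95% interval -0.23 to 0.54). In HD-MB03 it was at 291 and 250 CPM in the controls and at 184 and 197 CPM in the shCRX libraries. The arms did not overlap, and the log2 fold change was -0.50 ± 0.22 without passing the test (edgeR adjusted p = 0.259). Per length, BMP7 stood at 29.9 CPM per kb in D425 controls and 49.9 in HD-MB03 controls, beside 36.1 and 93.7 for ID1. BMP4 had 1 count in the D425 vector library, 0 counts in the other 5 D425 libraries and in 3 HD-MB03 libraries, and 25 counts, or 1.79 CPM, in HD-MB03 shCRX replicate 2. Over both HD-MB03 controls a count of 0 allows up to 0.792 CPM.

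**Figure D3:**
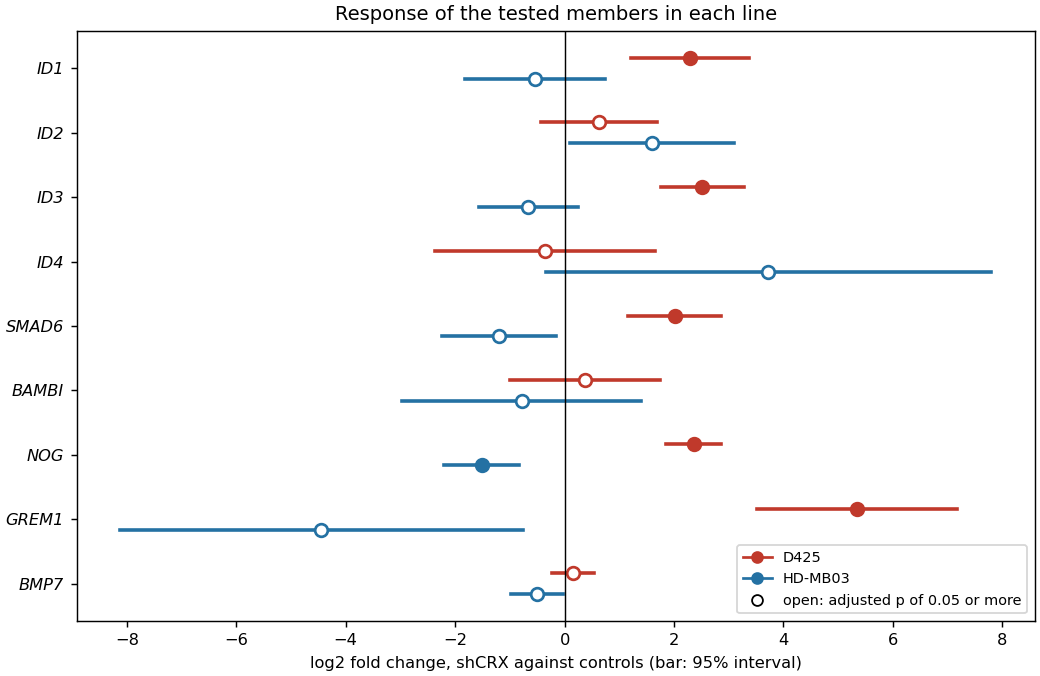
Log2 fold change of each tested member, libraries labelled shCRX against controls, with its 95% interval, in D425 and in HD-MB03. ID1, ID3, SMAD6, NOG and GREM1 lie above 0 in D425 with intervals that leave 0 out, and below 0 in HD-MB03, where NOG alone passed the adjusted threshold.

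In D425 every shCRX library was above every control for 5 of the 9 tested members, and for 11.5% of all genes. Among these members, GREM1 had passed the low-count filter through D425 shCRX itself. In HD-MB03 every shCRX library was below every control for 5 of the 9, ID1, ID3, SMAD6, NOG and BMP7, and for 21.8% of all genes, while 0 members but 30.5% of all genes had every shCRX library above. The test of the difference between the responses of the lines called 4 members, all with the higher response in D425, where 2.67% of all genes were called in that direction and 4.16% in either. The difference in log2 fold change, D425 minus HD-MB03, was 3.18 ± 0.54 for ID3 (edgeR adjusted p = 0.00971), 3.22 ± 0.62 for SMAD6 (0.0155) and 3.88 ± 0.40 for NOG (4.24e-04). For GREM1 it was 9.79 ± 2.06 (edgeR adjusted p = 0.0204), a size that depends on 5 counts in HD-MB03 and is no bound. Without the HD-MB03 vector library it was 3.38 and was not called. SMAD6 was no longer called when the HD-MB03 parental library or HD-MB03 shCRX replicate 1 was left out (adjusted p of 0.0913 and 0.0834), and that for GREM1 was lost without the latter as well (0.0648). For ID1 the difference was 2.83 ± 0.77 and did not pass (edgeR adjusted p = 0.063). CRX itself differed in the opposite direction, by -2.14 ± 0.45 (edgeR adjusted p = 0.0199).

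These differences need the HD-MB03 labels to be right, which CRX goes against. With the arms of HD-MB03 exchanged, its log2 fold changes would read 1.52 for NOG, 1.21 for SMAD6, 0.66 for ID3 and 0.54 for ID1, the sign of D425. The difference between the lines would then be called by edgeR for 0 of the 9 members, and for 0.225% of all genes. It would be 0.85 for NOG (edgeR adjusted p = 0.373), 0.80 for SMAD6 (0.598) and 1.86 for ID3 (0.195). The mean of the lines would be called for 4, ID3, SMAD6, NOG and GREM1, and for 4.16% of all genes. ID2 would instead turn to -1.60 in HD-MB03, against 0.62 in D425. ID4 would turn to -3.73, with -0.36 in D425, and neither passed in HD-MB03.

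Averaged over the lines, 0 of the 9 members were called by edgeR, DESeq2 or limma-voom, where 0.225% of all genes were called by edgeR. At an unadjusted p under 0.05, 4 were past it (ID1, ID2, ID3 and NOG), as were 13.2% of all genes. The mean response was 0.93 ± 0.27 for ID3 (edgeR adjusted p = 0.195) and 0.42 ± 0.19 for NOG (0.373).

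The controls of the 2 lines differed for 3 of the 9 members, each lower in D425 than in HD-MB03, where 16.8% of all genes were called lower, 17.4% higher and 34.3% in either direction. The log2 difference was -1.27 ± 0.38 for ID3 (edgeR adjusted p = 0.0227), -1.94 ± 0.44 for SMAD6 (0.00521) and -0.74 ± 0.20 for BMP7 (0.0119). These controls come from opposite number sets, and the lines could also be compared within each set, though then across arms. Within numbers 20 to 62, D425 shCRX against HD-MB03 controls gave 1.25 for ID3 (edgeR adjusted p = 0.0321), 0.07 for SMAD6 (0.922) and -0.58 for BMP7 (0.0396). Within numbers from 110, D425 controls against HD-MB03 shCRX gave -0.61 for ID3 (0.232), -0.74 for SMAD6 (0.208) and -0.23 for BMP7 (0.398). BMP7 had the same sign in all 3 comparisons, and ID3 turned round. NOG was the 1 member called in the same direction in both sets, where 30.7% and 31.2% of all genes were called. Of all genes, 9.38% were called higher in D425 in both sets and 9.25% lower. NOG was higher in D425 by 2.34 within the lower numbers (edgeR adjusted p = 9.9e-05) and by 1.49 within the higher (0.00125), while the controls of the lines overlapped. All 3 calls between controls were lost without the HD-MB03 parental library, and that for ID3 also without either vector library.

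ID1 and ID3 were the 2 of 9 tested members for which all 5 libraries numbered 20 to 62 were above all 5 numbered from 110, a pattern shown by 1.44% of all genes (1.21% had the reverse, with 0 members) and looked for after the values were seen. For ID1 the lower-numbered libraries were at 109 to 394 CPM and the others at 19.1 to 92.8 CPM. For ID3 these ranges were 68.7 to 247 and 18.6 to 59.3 CPM. For both genes, then, D425 shCRX and the HD-MB03 controls made up the upper range and the D425 controls and HD-MB03 shCRX the lower. NOG did not show this, since the HD-MB03 controls at 11.8 and 19.8 CPM lay on either side of the D425 controls, at 13.1 to 19.6 CPM. GREM1 did not either, with 0 counts in the HD-MB03 parental library.

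Within D425 shCRX, replicate 2 was the highest of the 3 libraries for 8 of the 9 tested members, all but ID4, and for 36.4% of all genes. Its excess over the next library was from 394 against 155 CPM for ID1 and 85.4 against 42.5 CPM for SMAD6 down to 85.6 against 79.7 CPM for NOG. Which hairpin this library carried is not stated in the labels. Without it the values were 1.53 for ID1, 1.37 for SMAD6 (edgeR adjusted p = 0.0365), 2.11 for ID3 and 2.29 for NOG (0.00173), each still higher in shCRX.

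In HD-MB03 the 2 libraries labelled shCRX differed from each other for some members and not for others. With 0.5 CPM added, replicate 2 was at least 4-fold above replicate 1 for 3 of the 9 tested members, ID2, ID4 and BAMBI, and for 1.55% of all genes. The plain ratios of CPM were 5.30 for ID2, 49.1 for ID4 and 13.5 for BAMBI, while they were 1.06 for NOG, 1.07 for BMP7, 1.41 for ID1, 1.44 for SMAD6 and 1.96 for ID3. The direction was almost one-sided across the genome, since 0.0125% of genes were as far below. Of the other BMP pathway genes, 7 of 58 tested showed the same excess. They were CHRD, BMP8B, FSTL1, HEY1, GATA2, GATA3 and TBX3. Among them HEY1, a Notch and BMP target, was at 1.14 CPM in replicate 1 and 24.6 CPM in replicate 2, GATA2 at 0.143 and 12.5 CPM, and TBX3 at 0.0715 and 10.4 CPM. The untested ligand BMP2 was at 0.50 and 9.10 CPM, beside the 0 and 25 counts of BMP4. This comparison is of 1 library with another, and was looked for after the values were seen.

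**Figure D4:**
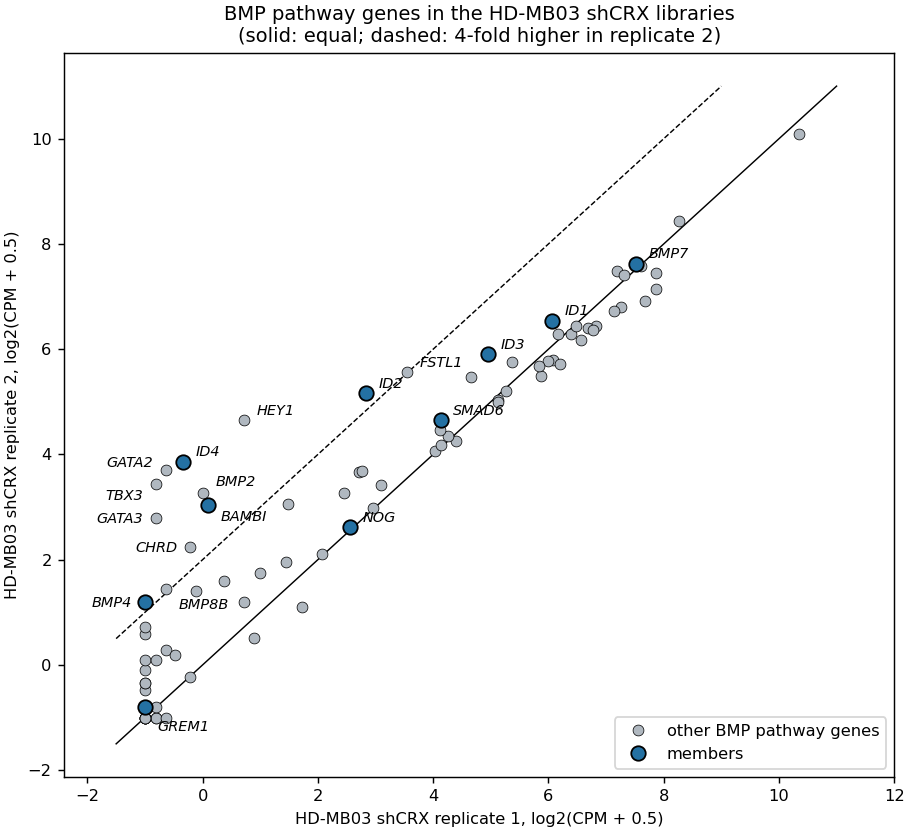
Levels of the 10 members and the other BMP pathway genes in HD-MB03 shCRX replicate 1 (horizontal) and replicate 2 (vertical), both as log2(CPM + 0.5), with equal levels on the solid line and a 4-fold excess in replicate 2 on the dashed line. ID2, ID4 and BAMBI lie above the dashed line, and NOG, BMP7 and SMAD6 lie near the solid one.

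Of 78 other genes of the pathway, listed by role, 76 were matched and 58 were tested. In D425, 3 of the 58 were higher in shCRX and 0 were lower, where 1.61% of all genes were called higher and 1.37% lower. A positive log2 fold change was found for 39 of the 58, and for 8290 of all 16006 genes. The median was 0.249 against 0.019 for all genes. At an unadjusted p under 0.05, 22 of the 58 were past it, as were 17.3% of all genes. In HD-MB03, 0 of 58 were called by edgeR, where 1.51% of all genes were called. An unadjusted p under 0.05 was reached by 8 of the 58 and by 17.2% of all genes, and the median was -0.001 against 0.102. The 3 that rose in D425 were SMAD7, BMPR1A and DLX3. SMAD7, the other inhibitory SMAD, was at 3.58, 2.34 and 2.64 CPM in controls and at 13.6, 33.9 and 15.9 CPM in shCRX, and its log2 fold change was 2.86 ± 0.40 (edgeR adjusted p = 0.00323). In HD-MB03 it was at 17.2 and 17.7 CPM in the controls and at 6.07 and 12.2 CPM in the shCRX libraries (-0.93 ± 0.48, edgeR adjusted p = 0.345). It was the 1 gene of the 58 called for the difference between the lines (4.16% of all genes), at 3.80 ± 0.63 (edgeR adjusted p = 0.00747). Like ID1 and ID3, SMAD7 had all lower-numbered libraries above the others, the 1 of the 58 to do so, as did 1.44% of all genes. PPM1A was the 1 of the 58 with the reverse, which 1.21% of all genes had.

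BMPR1A, a type I BMP receptor, was at 67.2, 65.0 and 81.8 CPM in the D425 controls and at 118, 184 and 124 CPM in D425 shCRX, which passed the test at a log2 fold change of 0.99 ± 0.20 (adjusted p = 0.0198, edgeR). No other of the 10 tested receptors and co-receptors was called, and their median was -0.005. In HD-MB03 BMPR1A was at 70.2 and 70.3 CPM in the controls and at 83.4 and 77.7 CPM in the libraries labelled shCRX. The difference between the lines for BMPR1A did not pass (0.80 ± 0.32, edgeR adjusted p = 0.176). DLX3, a homeobox gene and BMP target, rose from 0.616, 0.484 and 0.182 CPM to 0.923, 4.55 and 3.33 CPM (2.54 ± 0.60, edgeR adjusted p = 0.043). In HD-MB03 it was at 39.0 and 42.4 CPM in controls and 24.8 and 44.0 CPM in shCRX, far above every D425 library.

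By role in D425, the 13 BMP target genes had a median log2 fold change of 1.33, with 12 of 13 positive and 1 called. Every shCRX library was above every control for 10 of them, HEY1, ATOH8, MSX1, MSX2, DLX3, GATA2, GATA3, TBX2, TBX3 and RUNX2, where 11.5% of all genes did so. SNAI2 was below, from 9 counts over the controls to 0. MSX2, a homeobox gene, was at 2.07, 1.45 and 1.73 CPM in controls and at 3.32, 6.62 and 5.63 CPM in shCRX, without passing. The medians were 0.36 for the 5 SMADs, 0.18 for the 10 secreted antagonists and modulators, 0.15 for the 8 E proteins and proneural factors, 0.15 for the 8 intracellular regulators and -0.06 for the 4 other ligands. In those lists SMAD7 alone was called. In HD-MB03 the 13 target genes had a median of 0.280, with 7 positive. Secreted antagonists other than NOG and GREM1 were thus not called in either line. CHRDL1, a chordin-like antagonist, was at 127 ± 25.4 CPM in D425 controls and 144 ± 26.9 CPM in D425 shCRX (SD, n = 3 each).

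**Figure D5:**
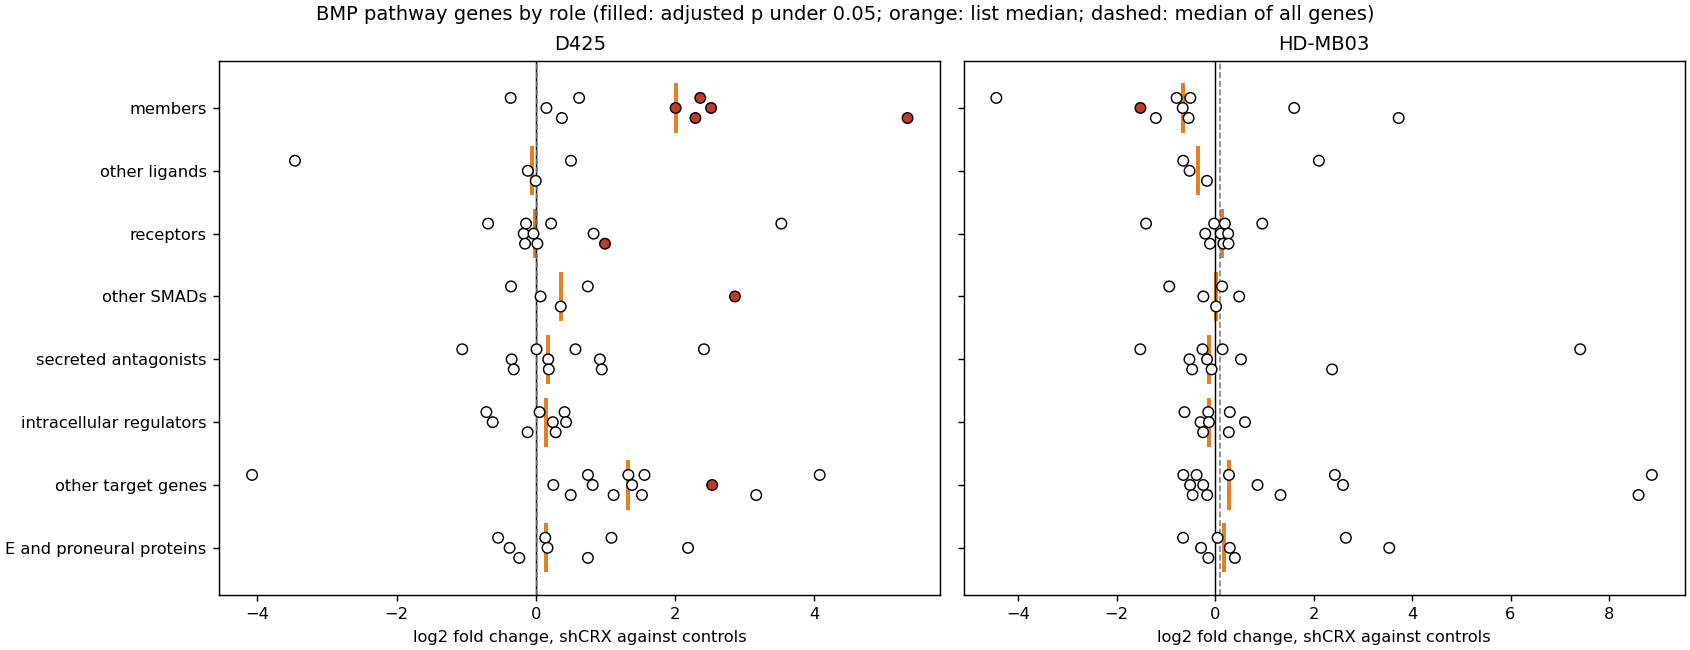
Log2 fold change of each tested gene, shCRX against controls, by role in the BMP pathway, in D425 and HD-MB03 (filled points passed the adjusted threshold, the orange bar is the list median and the dashed line the median of all genes). The members and the BMP target genes have medians of 2.01 and 1.33 in D425, and the members' median is -0.66 in HD-MB03.

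Likeness to ID1 and to ID3 over the 10 libraries was taken as Pearson's r of log2(CPM + 1), with ranks among all tested genes. The genes most like ID1 were first ID3 at 0.943, then FGFR2, MRPL57 and DAPK2 at 0.938, OSBPL5 at 0.935 and SAMD11 at 0.924. SMAD6 ranked the 28th at 0.883. For ID3 they were SAMD11 at 0.968, MAP3K6 at 0.957, ARHGDIG at 0.956, SPHK1 at 0.954 and KIF7 at 0.944, with ID1 the 6th. The other members were less alike, with r to ID3 of 0.857 for SMAD6, 0.828 for GREM1, 0.769 for NOG, 0.433 for ID2 and -0.17 for ID4. The libraries differ together in line, arm, number set and depth, so these values are descriptions.

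Markers of other cell types and base composition were set beside these results. In D425, 3 of the 6 tested Group 3 markers were lower in shCRX, CRX among them, with GABRA5 and IMPG2. Of all genes, 1.37% were called lower there. The 20 fibroblast and mesenchyme genes summed to 641 to 1331 CPM in D425 controls, 423 to 520 in D425 shCRX, 476 to 502 in HD-MB03 controls and 547 to 602 in HD-MB03 shCRX. FAP was at 0 in all 10 libraries. Of the 16 mesenchyme genes tested in D425, 1 was higher (PDGFRB) and 1 lower (COL6A1), where 2.97% of all genes were called. Endothelial genes summed to at most 3.22 CPM and Schwann cell genes to at most 3.73 CPM in any library. The 6 astrocyte genes summed to 72.1 to 167 CPM, S100B being at 0 throughout and AQP4 at 0 in every group but HD-MB03 shCRX. In bulk RNA, a change in the share of a cell type and a change in RNA per cell cannot be told apart. Across genes, the log2 fold change rose with GC content in D425 (Spearman's rho 0.277) and fell with it in HD-MB03 (-0.36). The members that rose in D425 had transcripts of 57.2% to 59.5% GC, apart from GREM1 at 39.8%, against a median of 48.2% for the tested genes. With offsets for GC content and length all 5 were still called in D425, at 2.10 for ID1, 2.34 for ID3, 1.86 for SMAD6, 2.13 for NOG and 5.53 for GREM1 (edgeR adjusted p of 6.40e-04 to 0.0377).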

How the data were processed

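RNA from 10 libraries of D425 and HD-MB03 was measured as read counts per gene. The counts were made and deposited by the authors, 1 file per library, as raw whole numbers. The tools named per the submitters' processing notes are HISAT2, HTSeq, bcl2fastq and DESeq2, on GRCh37 (hg19). Their versions and the strand setting are not given in the sources used here, so reads of overlapping and antisense genes cannot be told apart.

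HTSeq's summary entries, 20.7% to 49.5% of reads, entered neither the library sizes nor the tests. Of 57820 identifiers, 51996 had a symbol. Tests used edgeR 4.0.16 in R 4.3.3 (TMM scaling, filterByExpr, robust quasi-likelihood fit of 4 group means of line and arm, 6 residual degrees of freedom), adjusted by Benjamini-Hochberg over 16006 genes with a threshold of 0.05. All tests were two-sided, and SEs are the log2 fold change divided by the square root of F. Only the D425 test was checked on simulated data, with independent libraries and no difference between the lines. CPM used TMM-scaled library sizes, and CPM per kb the union exon length of an annotation of another build (GENCODE v29, GRCh38). A floor of 3 counts was 0.168 to 1.61 CPM per library, and floors and Poisson intervals (95%, exact) cover counting error only. DESeq2 1.42.0, limma-voom (limma 3.58.1), other scalings, no low-count filter, offsets for GC content and length, thinning, other controls, each library left out and a replicate block were alternatives. The replicate block was fitted without the D425 vector library and D425 shCRX replicate 3. For same-numbered D425 parental and shCRX libraries, the labels give only the number in common. The differences between replicates 1 and 2 in these arms had a correlation of 0.0258 across genes, which cannot show whether libraries were paired.

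The 10 genes, the gene lists and the tests were chosen with earlier results of these data known. Named genes were CRX, the members, every called gene of the pathway lists and the 5 genes most like ID1 and the 5 most like ID3. Other genes named were chosen after their values were seen. Fits of each line alone and within library-number sets, and the exchange of the HD-MB03 arms, were added after seeing the data.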

Additional observations from a re-analysis of the deposited data

Results flagged for a closer look

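Taken as labelled, the response to shCRX differed between the lines for 4 members, for SMAD7 alone among the other pathway genes tested, and for CRX. These calls are from the test of the difference itself in edgeR. That test called 4.16% of all genes. D425 minus HD-MB03, the log2 fold changes differed by 3.18 for ID3, 3.22 for SMAD6, 3.88 for NOG and 9.79 for GREM1, and by 3.80 for the inhibitory SMAD gene SMAD7. CRX, the targeted gene, differed by -2.14, since it was lower in D425 shCRX and higher in the HD-MB03 libraries labelled shCRX than in their controls. CRX thus goes against the HD-MB03 labels, and whether its arms were exchanged cannot be told from the files. With the arms exchanged 0 members, and 0.225% of all genes, would be called for the difference. NOG (1.52), SMAD6 (1.21) and ID3 (0.66) would then have the sign of D425 in HD-MB03. ID2 would turn away from it, to -1.60 against 0.62 in D425. In D425 the shCRX libraries had numbers 20 to 62 and in HD-MB03 from 110 upward, so the difference between the responses and the number set cannot be told apart.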

How the results depend on the processing

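With D425 controls restricted to the vector library, 1 member was called in D425 (NOG), and with parental libraries alone 3. The replicate block also left 3 (ID3, NOG and GREM1), as did leaving out D425 parental replicate 1 or the vector library (leave-one-out range 3 to 5, main value 5). In HD-MB03, where 1 was called, the count was 4 without a low-count filter, 2 with HD-MB03 libraries alone, and 0 with limma-voom, vector controls, parental controls or GC and length offsets (leave-one-out 0 to 1, the 1 without shCRX replicate 1 being ID2). For the difference of the lines, 4 in the main test, it was 0 with vector controls, 1 with parental controls and 2 to 5 with a library left out. For the mean of the lines it was 2 without a filter (ID2 and ID3) and 0 to 1 with a library left out. Between the controls, 3 in the main test, it was 5 with DESeq2, 0 with vector controls, 1 with parental controls and 0 to 5 with a library left out. With the HD-MB03 arms exchanged, which trades the tests of difference and mean, 0 members were called for the difference and 4 for the mean. Of all genes, 0.225% and 4.16% were called in these tests. The cause was not tested, apart from the fewer samples of the restricted controls, the leave-one-out fits and the replicate block. The number of all genes called moved too. In D425 it was 476 in the main test, 217 without parental replicate 1 and 185 without the vector library. In HD-MB03 it was 241, against 790 without a filter, 174 with limma-voom and 148 with the offsets. DESeq2 called 793 there, but 1 member. For the mean, 36 were called, against 405 without a filter. With vector controls each line has a lone control library, so lost calls there cannot tell unstable members from a weaker test. A lone library in an arm was assumed to vary like the other groups.

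Directions turned round as follows, with the range over the fits that leave out a library. In HD-MB03, ID2 (-0.041 to 2.36) and ID4 (-0.85 to 4.70) were below 0 without shCRX replicate 2. BAMBI there (-3.60 to 0.21) was 0.21 without the vector library, 0.12 without shCRX replicate 1 and 0.21 with parental controls, and GREM1 (-6.23 to 1.96) was 1.94 with parental controls. In D425, ID4 (-1.56 to 0.013) and BMP7 (-0.022 to 0.22) turned without shCRX replicate 2, thinning gave 0.14 for ID4, and vector controls gave -0.48 for BAMBI. Within numbers 20 to 62, the difference between lines was 1.25 for ID3 and 0.069 for SMAD6.

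In D425, NOG was called under 21 of 21 alternatives, ID3 under 20, GREM1 under 19, SMAD6 under 16 and ID1 under 10. The replicate block ended the calls of ID1 (1.82, edgeR adjusted p = 0.0756) and SMAD6 (1.80, 0.0707). Leaving out the D425 vector library alone ended both as well (edgeR adjusted p of 0.0869 and 0.0819). The block also lacks that library, so an effect of pairing cannot be told apart from one of fewer libraries. Scaling by library totals moved the median of all genes in D425 from 0.019 to 0.152. Depth limits GREM1, ID4 and BMP4 in the HD-MB03 controls, where 3 counts are 1.56 and 1.61 CPM.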
